A study of Rattus norvegicus with 12 samples.

Results

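A set of 9 circadian clock genes was read in the livers of 12 rats: the activators Bmal1, Clock and Npas2, the PAR bZIP output factors Dbp, Tef and Hlf, their antagonist Nfil3, and the feedback factors Bhlhe40 and Bhlhe41. They were taken by name. A probe set was assigned to a gene where the platform annotation gave it exactly 1 symbol and that symbol was on the list of 9. Of the 9 genes, 8 were found, each by 1 probe set, among 19418 probe sets of which 13327 carried 1 symbol. Hlf was not matched and is not analysed here.

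All animals were Sprague Dawley rats, housed singly with free food and water under a 12 hour light and 12 hour dark cycle. Control rats ate the diet without drug, naproxen rats ate 400 mg of naproxen per kg of diet, and NO-naproxen rats ate 550 mg of NO-naproxen per kg of diet, each for 7 days. Each diet had 4 rats and each rat 1 array. Naproxen is a nonsteroidal anti-inflammatory drug that inhibits the cyclooxygenases, and NO-naproxen is a naproxen derivative carrying a nitric oxide-donating group. The sources used here give no age, no sex and no time of day at which livers were taken. Whole liver was used, so fewer cells of a type and less RNA per cell cannot be told apart.

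The liver clock is a feedback loop of transcription. BMAL1 pairs with CLOCK or NPAS2, binds E-boxes and activates the Per, Cry and Nr1d genes as well as Dbp, Tef, Bhlhe40 and Bhlhe41. The REV-ERB proteins, encoded by the Nr1d genes, repress Bmal1, Clock, Npas2 and Nfil3 through RORE elements that the ROR receptors activate. DBP, TEF and HLF drive genes with D-boxes, among them genes of drug and lipid metabolism in liver, and NFIL3 represses through the same element. The levels of these messengers differ with the hour of the day, most of all those of Bmal1, Npas2 and Dbp.

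The elements that tie these genes to the loop were looked for in the 250 bases before each RefSeq start (assembly GRCr8), available for 8 of the 9 genes. The motifs, searched on both strands, were the E-box CACGTG, its variant CACGTT, the D-box TTANGTAA, the RORE ANTNGGTCA and the cyclic AMP element TGACGTCA. No motif overlapped another in these windows. Of the 8 genes, 4 held a match. The 60 bases around each are shown with the matched letters in capitals, since REV-ERB acts through the RORE and BMAL1 through the E-box. They are matches of letters, and binding was not measured here.
Bmal1: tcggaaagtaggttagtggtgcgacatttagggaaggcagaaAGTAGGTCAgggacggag
Tef: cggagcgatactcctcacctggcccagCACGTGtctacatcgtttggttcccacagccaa
Bhlhe40: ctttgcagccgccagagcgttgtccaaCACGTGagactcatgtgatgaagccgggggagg
Bhlhe41: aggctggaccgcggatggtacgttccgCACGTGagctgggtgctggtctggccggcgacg

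The Bmal1 window lies at chr1:176766268-176766327 on the plus strand, and its RORE match spans bases 18 to 10 before the start. The E-box of Tef lies in chr7:115206602-115206661 on the plus strand, 198 to 193 bases before the start. Bhlhe40 (chr4:143174203-143174262, plus strand) and Bhlhe41 (chr4:180569371-180569430, minus strand) hold theirs 220 to 215 and 48 to 43 bases before the start. The RORE letters occurred in 2.05% of 33469 promoter windows of this length and the E-box in 5.59%. The other motifs occurred in 4.07% (the E-box variant), 2.04% (D-box) and 1.59% (cyclic AMP element) of windows and in none of these genes' windows. Clock, with 2 starts in the table, and Npas2, Dbp and Nfil3 had no match in this window.

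None of the 8 genes passed the test for a change with either drug. In limma over all 12 arrays and all probe sets, 0 of 8 passed a Benjamini-Hochberg adjusted p of 0.05 for naproxen against control, NO-naproxen against control or NO-naproxen against naproxen, where 0% of all probe sets passed. The criterion of the series design is an unadjusted p under 0.05 with a change of at least 1.5-fold. It was met by 0 of 8 genes in each comparison, against 5.85% of all probe sets for naproxen (0.875% higher, 4.97% lower), 3.80% for NO-naproxen (1.78% higher, 2.02% lower) and 0.572% between the drugs. Of those probe sets 85% were lower with naproxen and 53.1% with NO-naproxen, against 61.9% and 53.2% after quantile normalization and 51.1% and 29.6% when each array was centred. Centring shifted the naproxen median over the whole array from -0.03 to 0.08 log2 units. An unadjusted p under 0.05 alone was reached by 0, 1 and 0 genes in the 3 comparisons, against 12.7%, 10.4% and 1.92% of probe sets. The arrays of 2 diets did not overlap for 0 of 8 genes in each comparison, against 4.50%, 3.35% and 1.17%.

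**Figure D1:**
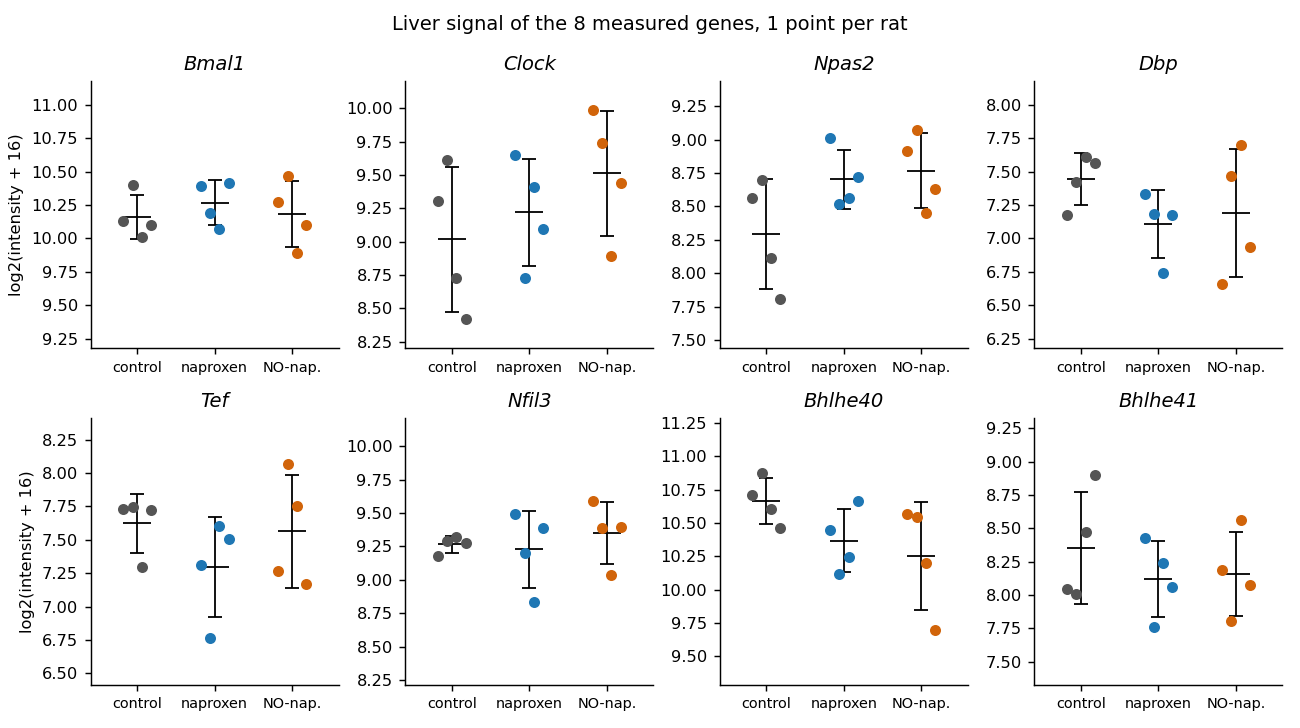
Signal of each gene, as log2(intensity + 16), in every rat by diet. Points are rats, long bars the mean and whiskers the SD (n = 4), and every panel spans 2 log2 units. The rats of the 3 diets overlap in all 8 panels. Npas2 has its 2 lowest rats among controls, and Bhlhe40 its lowest rat under NO-naproxen.

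Bmal1 (Entrez Gene 29657), the obligate partner of both other activators, had close means under all diets. Its intensities were 1105, 1334, 1017 and 1079 in control rats 1 to 4. They were 1331, 1154, 1057 and 1348 with naproxen, and 1221, 1399.8, 932 and 1082 with NO-naproxen. The highest and the lowest rat of all 12 were both NO-naproxen rats. On the log2(intensity + 16) scale, used for all means and differences below, Bmal1 averaged 10.16 ± 0.17 in control livers, 10.27 ± 0.17 in naproxen livers and 10.18 ± 0.25 in NO-naproxen livers (SD, n = 4). The log2 fold change was 0.11 ± 0.17 (SE) with naproxen, with a 95% interval of -0.25 to 0.47, and 0.02 ± 0.17 with NO-naproxen, interval -0.34 to 0.39. Both intervals lie inside a 1.5-fold change either way, 0.58 log2 units. The same was so for 36.5% and 34.9% of all probe sets. The order from control through NO-naproxen to naproxen is within the spread at each step, and the sign of both differences turned negative once array spread entered the fit (-0.07 and -0.18).

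Clock (Entrez Gene 60447), the histone acetyltransferase partner of BMAL1, had the widest spread of the 8 genes among control rats. Its intensities were 617, 767, 407 and 327 in control rats 1 to 4. They were 786, 408, 666 and 531 with naproxen, and 996, 837, 459.7 and 678 with NO-naproxen. The highest control rat stood above 2 of the 4 NO-naproxen rats, and the groups overlapped. Means were 9.02 ± 0.54, 9.22 ± 0.40 and 9.51 ± 0.47 in the order control, naproxen, NO-naproxen (SD, n = 4). The log2 fold change was 0.20 ± 0.29 with naproxen (interval -0.40 to 0.81) and 0.50 ± 0.29 with NO-naproxen (interval -0.11 to 1.103). In limma the adjusted p was 0.753 and 0.477. Once array spread, which itself differed between diets, entered the fit the values were -0.30 and -0.05. Clock met the criterion of the series design for NO-naproxen with array weights (0.72), without control rat 2 (0.70) and without NO-naproxen rat 3 (0.70), and Npas2 did so without control rat 2 (0.61). Under these settings 13%, 13.2% and 12.7% of all probe sets met it.

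Npas2 (Entrez Gene 316351), the paralogue that can replace CLOCK, had the smallest p of the 8 genes. Control rats 1 to 4 measured 362, 399.7, 261 and 207. Naproxen rats measured 499.7, 349.8, 363 and 406, and NO-naproxen rats 466, 523, 333 and 380.1. The 2 lowest of all 12 rats were controls, and the other 2 controls lay among the treated rats. Means were 8.30 ± 0.41, 8.70 ± 0.22 and 8.77 ± 0.28 in the order control, naproxen, NO-naproxen (SD, n = 4). The log2 fold change was 0.41 ± 0.22 with naproxen (interval -0.05 to 0.86) and 0.47 ± 0.22 with NO-naproxen (interval 0.01 to 0.93). The latter had an unadjusted p of 0.0442 and an adjusted p of 0.468 in limma, and the exact permutation test of the 4 and 4 rats gave p = 0.143 (2-sided; 0.771 after Benjamini-Hochberg adjustment over 24 tests, the smallest possible unadjusted p being 0.0286). The sign was positive under all 15 alternatives that can move a fold change, in both comparisons. The 2 low controls were replicates 3 and 4, whose arrays had the narrowest spread, and without them the log2 fold changes were 0.07 and 0.13.

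**Figure D2:**
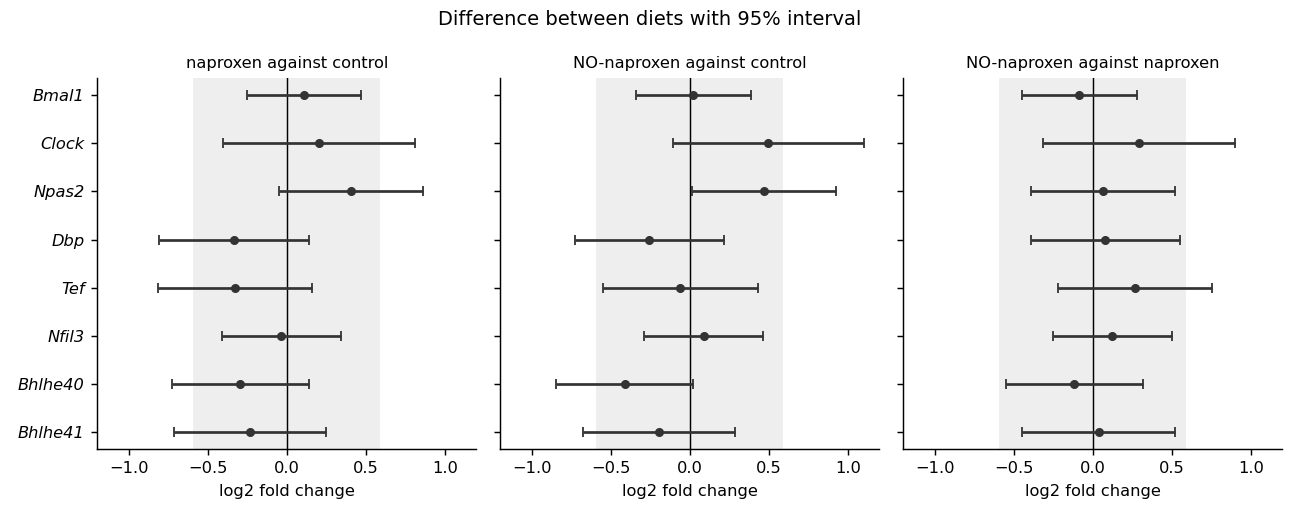
Log2 fold change (points) with its 95% interval (bars) for the 3 comparisons, from limma. The grey band marks changes under 1.5-fold. All intervals but that of Npas2 for NO-naproxen against control include 0, and those of Bmal1 and Nfil3 lie inside the band in all 3 panels.

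The rat-to-rat values of Clock and Npas2 moved together and with the array. Over the 12 rats the 2 genes had Pearson's r = 0.875 and Spearman's rho = 0.902 (permutation p = 9e-05 and 1e-04; adjusted p = 0.00234 and 0.00286 over 52 relations). Without the 2 rats farthest from the median of Clock, r was 0.769, and within the diets it was 0.992, 0.732 and 0.872 (control, naproxen, NO-naproxen; 4 rats each). Each gene followed the interquartile range of its array, a measure of the spread of all signals, which ran from 1.94 to 2.62 log2 units over the arrays. For Clock r was 0.858 and rho 0.909 (permutation p = 0.00055 and 0.00011; adjusted p = 0.00953 and 0.00286), and for Npas2 r was 0.892 and rho 0.895 (p = 6e-05 and 2e-04; adjusted p = 0.00234 and 0.00347). Without the 2 rats farthest from the median r was 0.755 for Clock and 0.859 for Npas2. Of all probe sets, 9.9% and 5.1% had an r with the spread of at least these sizes in either direction. The spread ran from 1.94 to 2.37 in controls, 2.20 to 2.53 with naproxen and 2.07 to 2.62 with NO-naproxen. It was thus partly tied to diet, and fits with the spread as a covariate cannot fully tell the 2 apart. With the spread partialled out, the r between Clock and Npas2 was 0.471 (permutation p = 0.120), and after quantile normalization it was 0.778 (permutation p = 0.00036, adjusted p = 0.0101 over 28 pairs). For Bmal1 with Npas2, r was 0.687 and rho 0.818 (permutation p = 0.0113 and 0.00205; adjusted p = 0.127 and 0.0267), and r was 0.679 without the 2 rats farthest from the median and 0.213 with the spread partialled out. After quantile normalization r was 0.095 for this pair (permutation p = 0.740).

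**Figure D3:**
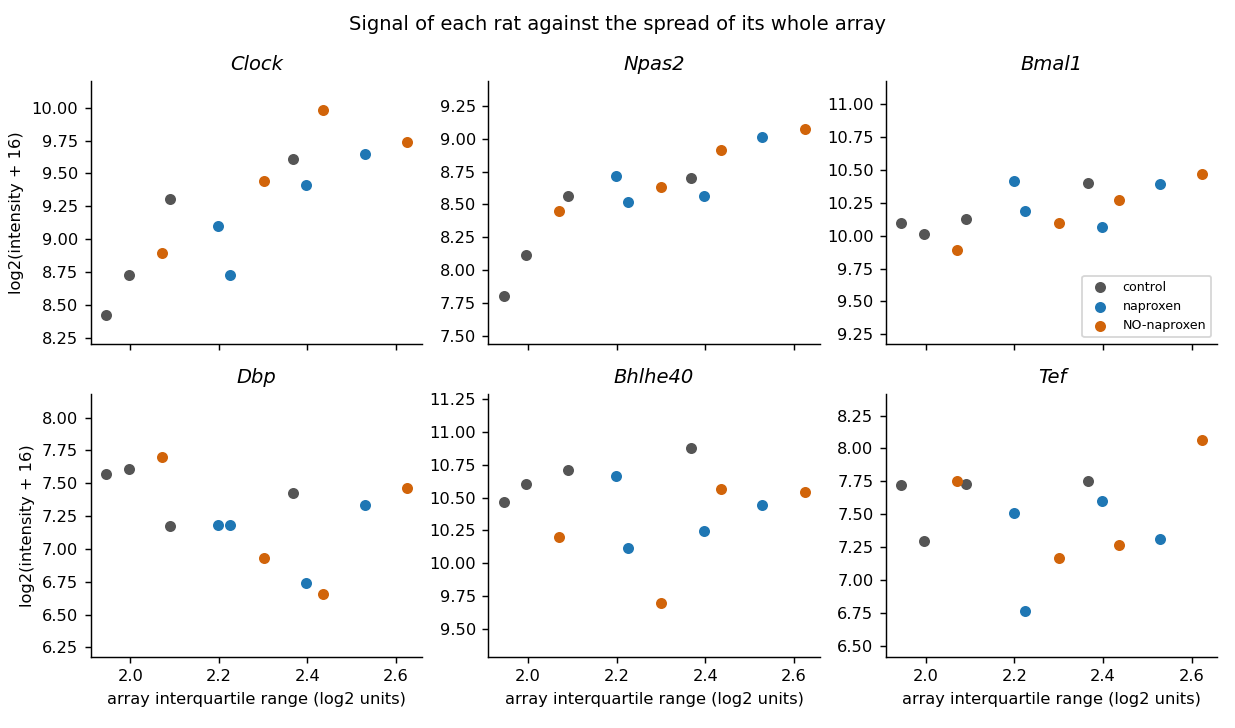
Signal of 6 genes in each rat, as log2(intensity + 16), against the interquartile range of all log2 values of its array. Points are rats, coloured by diet, and every panel spans 2 log2 units. Clock and Npas2 are higher on arrays of wider spread within each diet, and over the 12 rats r is -0.000648 for Bhlhe40 and 0.0784 for Tef, although Bhlhe40 has r = 0.952 within controls and 0.528 within NO-naproxen.

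Dbp (Entrez Gene 24309), the output factor under the most direct control of BMAL1, had a lower mean with each drug by less than the test required. Control rats 1 to 4 measured 129, 156, 179.7 and 174. Naproxen rats measured 145, 129.5, 91 and 129, and NO-naproxen rats 84.9, 161, 192 and 106. The NO-naproxen rats covered the whole range, holding both the highest and the lowest value of all 12. Means were 7.45 ± 0.20, 7.11 ± 0.26 and 7.19 ± 0.48 in the order control, naproxen, NO-naproxen (SD, n = 4). Dbp had a log2 fold change of -0.34 ± 0.22 with naproxen (interval -0.81 to 0.14, adjusted p = 0.500) and -0.26 ± 0.22 with NO-naproxen (interval -0.73 to 0.22, adjusted p = 0.583), by limma. Both were negative in all 15 such alternatives.

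Tef (Entrez Gene 29362), the second PAR bZIP factor, measured 196, 199, 141 and 195 in control rats 1 to 4. It measured 143, 92.5, 178 and 166 with naproxen and 138, 252, 200.1 and 128 with NO-naproxen. Of the 4 naproxen rats 1 was below every other rat, and of the 4 NO-naproxen rats 1 was above every other. Means were 7.62 ± 0.22, 7.30 ± 0.38 and 7.56 ± 0.42 (SD, n = 4; same order). The log2 fold change was -0.33 ± 0.23 with naproxen (interval -0.82 to 0.16) and -0.06 ± 0.23 with NO-naproxen (interval -0.55 to 0.43), and the latter changed sign after median centring (0.01). Dbp and Tef, which share the D-box, had r = 0.376 and rho = 0.469 over the rats (permutation p = 0.228 and 0.126; adjusted p = 0.440 and 0.384), and r = 0.481 without the 2 rats farthest from the median of Dbp.

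Nfil3 (Entrez Gene 114519), the repressor at the D-box, had close means under all diets. Control rats 1 to 4 measured 562, 609, 624 and 602.5, the narrowest group of any of the 8 genes. Naproxen rats measured 705, 572, 441 and 653, and NO-naproxen rats 755, 654, 508 and 656. Each drug group reached both above and below all controls. Means were 9.26 ± 0.06, 9.23 ± 0.29 and 9.35 ± 0.23 (SD, n = 4). For Nfil3 the log2 fold change was -0.04 ± 0.18 with naproxen (interval -0.41 to 0.34) and 0.09 ± 0.18 with NO-naproxen (interval -0.29 to 0.46), inside a 1.5-fold change in both. Its sign turned under quantile normalization for NO-naproxen (-0.10) and under median centring for naproxen (0.08).

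Bhlhe40 (Entrez Gene 79431), known as DEC1, competes with BMAL1 for E-boxes and had the most negative value with NO-naproxen. Control rats 1 to 4 measured 1661, 1863, 1538 and 1396. Naproxen rats measured 1379, 1096, 1199.7 and 1603, and NO-naproxen rats 1497, 1478, 1158.5 and 815. The highest rat was a control and the lowest an NO-naproxen rat, while 1 naproxen and 2 NO-naproxen rats lay within the control range. Means were 10.66 ± 0.17, 10.37 ± 0.24 and 10.25 ± 0.40 in the order control, naproxen, NO-naproxen (SD, n = 4). The log2 fold change was -0.29 ± 0.20 with naproxen (interval -0.73 to 0.14) and -0.41 ± 0.20 with NO-naproxen (interval -0.85 to 0.02). In limma the unadjusted p was 0.169 and 0.0613 and the adjusted p 0.518 and 0.468. Both were negative in all 15 such alternatives. After quantile normalization the values were -0.37 and -0.55 (unadjusted p = 0.0439 and 0.00499, adjusted p = 0.369 and 0.450, limma), and the drug arrays then lay below all control arrays, as 5.24% and 3.45% of probe sets were separate either way. Once array spread entered the fit the value for NO-naproxen was -0.59 (unadjusted p = 0.014, adjusted p = 0.998, limma), past 1.5-fold, in a fit where 1.22% of all probe sets met the criterion.

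Bhlhe41 (Entrez Gene 117095), its paralogue DEC2, measured 248, 241, 339 and 460.2 in control rats 1 to 4. It measured 328, 201, 286 and 251 with naproxen and 276, 208, 363 and 254 with NO-naproxen. The highest rat was a control, and the other 11 rats ran from 201 to 363 with all diets mixed. Means were 8.35 ± 0.42, 8.12 ± 0.28 and 8.16 ± 0.32 (SD, n = 4). For Bhlhe41 the log2 fold change was -0.23 ± 0.23 with naproxen (interval -0.72 to 0.25) and -0.20 ± 0.23 with NO-naproxen (interval -0.68 to 0.29), and both turned positive without the 2 arrays of narrowest spread (0.10 and 0.13). Bhlhe40 and Bhlhe41 had r = 0.000966 and rho = -0.189 over the rats (permutation p = 0.998 and 0.557; adjusted p = 0.999 and 0.874; r = -0.502 without the 2 rats farthest from the median of Bhlhe40).

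**Figure D4:**
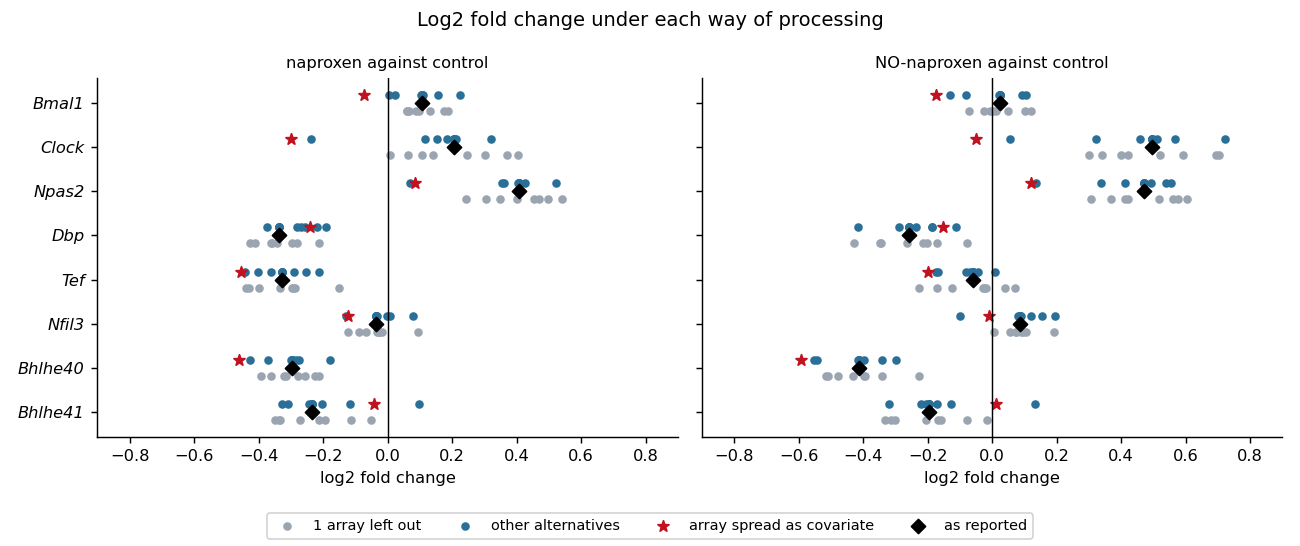
Log2 fold change against control for each gene as reported (black diamonds), with 1 array left out (grey), with the array spread as a covariate (red stars) and under the other alternatives (blue). Npas2 stays right of 0 and Dbp and Bhlhe40 stay left of 0 in both panels, while Bmal1, Clock, Nfil3 and Bhlhe41 have points on both sides.

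The drugs were fed at different doses by weight, and their molar doses were not compared here. The direct difference between the drugs is read as that of 2 diets, and any part of dose in it was not tested. NO-naproxen minus naproxen ranged from -0.12 for Bhlhe40 (interval -0.55 to 0.32) to 0.29 for Clock (interval -0.31 to 0.90). Tef had the next highest value, 0.27 (interval -0.22 to 0.76). For the other 6 genes (Bmal1, Npas2, Dbp, Nfil3, Bhlhe40 and Bhlhe41) the interval lay inside a 1.5-fold change either way, which was so for 50.1% of all probe sets. This depended on the processing. Over 19 alternatives the interval stayed inside in 19 for Bmal1, 16 for Npas2 and 16 for Nfil3. It did so in only 11 for Dbp, 12 for Bhlhe40 and 12 for Bhlhe41.

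Over the 8 genes the median log2 fold change was -0.13 with naproxen, with 3 above 0, and -0.02 with NO-naproxen, with 4 above 0. Over all probe sets the medians were -0.03 and 0.00044, with 45.9% and 50.1% above 0. The median size of the change, sign aside, was 0.26 and 0.23 in the 8 genes and 0.21 and 0.22 in all probe sets. The comparisons share the control rats, so their values are not independent.

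The repressors of the same loop were read in the same livers, from a list chosen with earlier results of these data known. Of the 8 listed, 6 were measured, and by the criterion of the series design 1 was higher and 2 lower with naproxen, and 2 higher and 2 lower with NO-naproxen. None of the 6 passed the adjusted threshold. Of all probe sets, 5.85% met the criterion with naproxen and 3.80% with NO-naproxen. For Nr1d1, which encodes REV-ERB alpha, the log2 fold change was 1.72 ± 0.42 (SE) with naproxen and 1.73 ± 0.42 with NO-naproxen. Per2, which inhibits BMAL1 and CLOCK, had -1.42 ± 0.31 and -0.99 ± 0.31, and its co-repressor Cry1 -0.74 ± 0.25 and -0.72 ± 0.25. Per1 had 0.52 ± 0.41 and 1.01 ± 0.41. Per3 had -0.44 ± 0.24 and -0.05 ± 0.24, and Cry2 -0.17 ± 0.21 and -0.05 ± 0.21, within the range of the 8 genes except for Per3 with naproxen. The gap between repressors and the 8 genes was not tested.

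**Figure D5:**
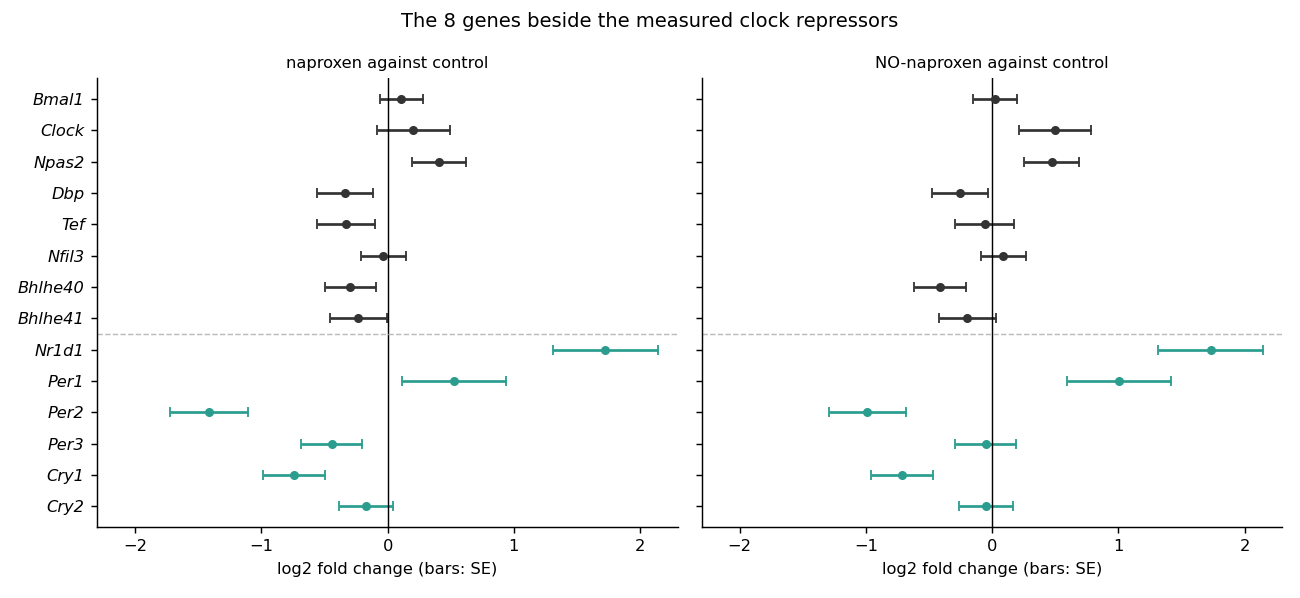
Log2 fold change against control with its standard error (bars) for the 8 genes (black, above the dashed line) and the 6 measured clock repressors (green, below it). Nr1d1, Per2, Cry1 and Per1 lie farther from 0 than any of the 8 genes in both panels, Per3 does so with naproxen only, and Cry2 in neither.

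Rat by rat, Nr1d1 measured 8.49, 7.42, 7.26 and 7.51 in control rats 1 to 4 on the log2 scale, and Per2 7.15, 8.60, 8.55 and 8.41. Control rat 1 was the highest control for Nr1d1 and the lowest for Per2. Of the 8 genes, Dbp was lowest among controls in that rat, and so was Nfil3. Without it the log2 fold change of Dbp was -0.43 with naproxen and -0.35 with NO-naproxen, and 0 of the 8 genes passed either threshold. Dbp and Per2 had r = 0.693 and rho = 0.734 over the 12 rats (permutation p = 0.0135 and 0.00892; adjusted p = 0.127 and 0.0928), with r = 0.682 without the 2 rats farthest from the median of Dbp and 0.651 with the array spread partialled out. No relation of the 8 genes with Nr1d1 or Per2 over the 12 rats passed adjustment over the 52. Nfil3 with Nr1d1 had r = -0.40 over the 12 rats. Within control, naproxen and NO-naproxen it was -0.989, -0.907 and -0.892 (4 rats each). For deviations from diet means it was -0.76 (permutation p = 0.00427, not adjusted), the smallest such p among the relations with Nr1d1 or Per2. Dbp with Nr1d1 had mixed signs within the diets, -0.926, -0.761 and 0.994 in the same order.

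Genes that act with or after the 8 were counted from further lists, also chosen with earlier results known. Of 3 ROR genes, which activate the RORE, 2 were measured and 0 met the criterion. For Rorb the log2 fold change was -0.55 ± 0.23 (SE) with naproxen and -0.41 ± 0.23 with NO-naproxen, and Rora -0.23 ± 0.22 and 0.02 ± 0.22. Of 12 kinases, phosphatases and ubiquitin ligases of the clock 10 were measured, and 0 met it with either drug. Of all probe sets, 5.85% met it with naproxen and 3.80% with NO-naproxen.

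Among 22 genes of drug and lipid metabolism tied to the PAR bZIP factors, 9 were measured, with 3 higher and 1 lower by the criterion with naproxen and 3 higher and 0 lower with NO-naproxen. Their median log2 fold change was 0.43 and 0.36. The criterion was met by 5.85% of all probe sets with naproxen and 3.80% with NO-naproxen. Upp2, a uridine phosphorylase, had 1.88 ± 0.39 and 1.74 ± 0.39. Nr1i3, the drug-sensing receptor CAR, had 0.86 ± 0.27 and 0.67 ± 0.27. The bile acid enzyme Cyp7a1 had -1.06 ± 0.25 and -0.40 ± 0.25, and the fatty acid receptor Ppara 0.44 ± 0.25 and 0.67 ± 0.25. NO-naproxen minus naproxen was 0.66 ± 0.25 for Cyp7a1, which met the criterion, as 0.572% of all probe sets did. For Ppara it was 0.23 ± 0.25. Dbp and Tef themselves had means at or below control in both groups.

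Of 12 genes controlled by REV-ERB and ROR receptors, 9 were measured and 2 were higher by the criterion with each drug. These were Rgs16, a regulator of G protein signalling, with 2.20 ± 0.42 and 1.77 ± 0.42, and Ppargc1a, a coactivator of fasting metabolism, with 1.09 ± 0.30 and 0.99 ± 0.30. The median of the 9 was 0.05 and 0.07. Of 11 rhythmic genes of E-box control, 10 were measured, with 1 higher and 1 lower with naproxen (Lpin1 at 1.00 ± 0.43, Pnpla3 at -0.93 ± 0.38) and 1 higher with NO-naproxen (Lpin1 at 0.94 ± 0.43). The median of the 10 was -0.21 and -0.22. Beside both lists, 5.85% of all probe sets met the criterion with naproxen and 3.80% with NO-naproxen.

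Glucocorticoids and feeding are known to reset the liver clock. Of 13 glucocorticoid-induced genes, 10 were measured, with 3 higher and 2 lower with naproxen and 2 higher and 2 lower with NO-naproxen. These and the next counts are by the criterion, met by 5.85% of all probe sets with naproxen and 3.80% with NO-naproxen. Dusp1, a phosphatase of MAP kinases, had -1.39 ± 0.28 and -1.38 ± 0.28, and the zinc finger factor Zbtb16 1.86 ± 0.42 and 1.50 ± 0.42. Of 16 genes of feeding and fasting, 12 were measured, with 2 and 1 higher, and of 12 immediate early genes 11 were, with 1 and 2 higher and 0 lower. The lists share genes, so these counts are not separate. Ppargc1a, counted for feeding with both drugs, is also a REV-ERB and ROR gene above. Per1, counted for glucocorticoids with NO-naproxen, is also a repressor above. The part of glucocorticoids, feeding and these genes in the values of the 8 genes was not tested.

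The tissue matched its label: of 10 hepatocyte markers 8 were measured, all above the range of olfactory and vomeronasal receptor probe sets (the 95th percentile of 970 such probe sets, 6.44), and albumin averaged 13.62 in controls and 13.67 with naproxen. The mean of the hepatocyte markers per rat ran from 12.90 to 13.12 in controls, 12.80 to 12.99 with naproxen and 12.83 to 13.13 with NO-naproxen. The mean of 7 measured Kupffer cell markers ran from 8.54 to 9.10, 8.76 to 9.27 and 8.88 to 9.56 in the same order, and that of 5 stellate markers from 7.98 to 8.51, 8.33 to 8.77 and 8.21 to 8.80. For the 2 measured of 6 endothelial markers the ranges were 8.05 to 8.71, 8.72 to 8.85 and 8.27 to 8.70. The lowest endothelial mean with naproxen (8.716) was just above the highest in controls (8.709), with Oit3 separate and Clec4g overlapping. Of all single probe sets, 4.50% did not overlap between these diets. The means of the ROR, immediate early and PAR bZIP lists per rat did not overlap between them either. None of these gaps was tested. For the 2 measured of 4 cholangiocyte markers they were 6.21 to 6.49, 6.39 to 6.69 and 6.32 to 6.46, and 1 of these, Epcam, averaged under 6.44. All 8 clock genes averaged above 6.44. Array medians ran from 89.8 to 118.1 intensity units.

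The genes whose rat-to-rat pattern was most like each clock gene were ranked over the 12 rats among 9825 named genes above that range. As the ends of a ranking, their coefficients carry no test, and the arrays share their differences in spread. Ints4 (r = 0.983), Mcmbp (0.981) and Aspdh (0.976) were nearest to Npas2, with 0.972, 0.967 and 0.911 after quantile normalization. Prkaa2, Zfp655 and Wdr33 were nearest to Clock (0.978, 0.975 and 0.975). For Bmal1 these were Usf1, Trim35 and Enox2 (0.930, 0.919 and 0.914), with 0.634, 0.724 and 0.513 after quantile normalization.

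Dus4l, Gfra3 and Bambi were nearest to Dbp (r = 0.953, 0.925 and 0.896), and Akr1d1, a bile acid reductase, Scly and Extl2 to Tef (0.934, 0.864 and 0.841). Nearest to Nfil3 were Fzd5, Cd274 and Smyd2 (0.942, 0.936 and 0.933), to Bhlhe40 Nrep, Ppp1r3b and Bcar1 (0.881, 0.860 and 0.857), and to Bhlhe41 Zdbf2, Noto and Drc12 (0.897, 0.895 and 0.890). At the opposite end stood Xkr5 for both Clock (-0.944) and Npas2 (-0.963), Opn5 for Bmal1 (-0.899), Slc25a31 for Dbp (-0.851), Opcml for Tef (-0.812), Rgs19 for Nfil3 (-0.854), F10 for Bhlhe40 (-0.846) and St3gal2 for Bhlhe41 (-0.859). After quantile normalization these were, in the same order, -0.842, -0.924, -0.369, -0.703, -0.782, -0.316, -0.469 and -0.757. The genes nearest to Nfil3 then had 0.576, 0.518 and 0.818, and those nearest to Bhlhe41 0.925, 0.937 and 0.922.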

How the data were processed

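Liver RNA was depleted of ribosomal RNA, biotin-labelled and hybridised to whole-transcript arrays, per the labels' protocols. The authors deposited linear intensities per probe set. The submitters' processing notes name Affymetrix Expression Console 1.1.1 and the genome build rn4. The sources used here do not give how probes were summarised and normalized, and array medians differ.

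Here 16 was added before log2, which understates changes of dim probe sets. All 12 arrays entered 1 limma 3.58.1 fit (R 4.3.3, 2-sided, diet the only term), with Benjamini-Hochberg adjustment over all 19418 probe sets. The step was tested on simulated data. Permutation tests of correlations used 100000 resamples (numpy 2.4.6, Python 3.11.15), and their family of 52 held 28 pairs of genes, 8 relations to array spread and 16 to Nr1d1 and Per2, the last 24 added after seeing the data. Figures used matplotlib 3.10.9. Motifs were matched in RefSeq promoter sequences of GRCr8. The genes and lists were chosen with earlier results of these data known. Named genes were the members, up to 4 of each list by smallest p, and the 3 most and least correlated with each member, of which the first of the least is given.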

Additional observations from a re-analysis of the deposited data

Results flagged for a closer look

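For Tef, control replicate 3 stood apart from the other control rats: its log2 value was 7.29, against 7.72 for the nearest of the other 3. It was the only such value among 24 groups of 4 rats (8 genes in 3 diets), where chance gives about 1 in 20.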

How the results depend on the processing

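Each of the 8 genes was refitted under 19 alternatives plus the exact test per comparison, and no gene passed the adjusted threshold in any. Among the settings that can move a fold change (15 against control, 14 between the drugs), signs turned in 7 of 120 fits for naproxen, 14 of 120 for NO-naproxen and 12 of 112 between the drugs. The cause was not tested, and array spread differed between diets. For naproxen against control, Nfil3 had 0.080 after median centring and 0.0065 with array weights. With the array interquartile range as a covariate Bmal1 had -0.075 and Clock -0.30, and without the 2 arrays of narrowest spread Clock had -0.24 and Bhlhe41 0.096. For NO-naproxen against control, quantile normalization gave -0.13 for Bmal1 and -0.099 for Nfil3, and median centring gave 0.0091 for Tef. The covariate gave -0.18 for Bmal1, -0.051 for Clock, -0.0088 for Nfil3 and 0.012 for Bhlhe41, and leaving out the 2 narrowest arrays gave -0.082 for Bmal1 and 0.13 for Bhlhe41. Between the drugs, Npas2 had -0.023 after quantile normalization, Bhlhe41 -0.0096 after median centring and Dbp -0.15 with array weights. The criterion of the series design was met for NO-naproxen by 1 gene with array weights (Clock) and by 1 with the covariate (Bhlhe40), and by 0 to 2 with single arrays left out, where 13%, 1.22% and 1.46% to 13.2% of all probe sets met it. Comparisons whose arrays did not overlap numbered 2 after quantile normalization, both of Bhlhe40, against 0 of 24.

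Leaving out single arrays gave Nfil3 -0.12 to 0.095 for naproxen, and Bmal1 -0.072 to 0.12 and Tef -0.23 to 0.072 for NO-naproxen. Without a change of sign, Clock ranged from 0.0064 to 0.40 and Bhlhe41 from -0.35 to -0.053 for naproxen, and Bhlhe41 from -0.33 to -0.016 and Dbp from -0.43 to -0.079 for NO-naproxen. Between the drugs the ranges were -0.18 to 0.013 for Bmal1, -0.039 to 0.17 for Npas2, -0.091 to 0.26 for Dbp, -0.0082 to 0.23 for Nfil3, -0.22 to 0.067 for Bhlhe40 and -0.099 to 0.15 for Bhlhe41. Of 28 gene pairs, 1 passed adjustment over the pairs, against 2 by Spearman's rho (added after seeing the data), 2 over deviations from diet means, 2 after quantile normalization and 0 with the interquartile range partialled out. The 2 after quantile normalization were Clock with Npas2 and Npas2 with Bhlhe41 (r = -0.807, adjusted permutation p = 0.0437). Before quantile normalization Npas2 with Bhlhe41 had r = -0.644 (adjusted permutation p = 0.224 over the pairs). That r was -0.117 without the 2 rats farthest from the median of Npas2. Within the diets it was -0.990, 0.764 and -0.840 (control, naproxen, NO-naproxen, 4 rats each). With the replicate block, Npas2 had a log2 fold change of 0.47 for NO-naproxen (adjusted p = 0.432, limma) and no call changed. The deviations of same-numbered rats from their diet means correlated between -0.38 and 0.48. Values of mixed sign cannot decide whether such rats shared more than a number. The mean over probe sets was not run, since each gene had 1. With 4 rats a diet, the interval of Clock for NO-naproxen against control reached past a 2-fold change.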
